A study of Homo sapiens with 5 samples.

Results

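TWIST1, TWIST2, SNAI1, SNAI2, ZEB1 and ZEB2 encode the transcription factors best known for switching epithelial cells to a mesenchymal state, and VIM and FN1 encode vimentin and fibronectin, proteins made in that state. These 8 genes were taken by symbol, and where a gene had several probe sets, the member probe set was chosen by its mean log2 intensity across the 5 arrays, the highest being kept. All 8 of 8 listed were measured, out of 14812 genes in all. Only VIM had more than 1 probe set, so that choice mattered for VIM alone. They were compared between irradiated LNCaP cells with and without a hairpin against RB1.

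LNCaP is an established human prostate cancer line that depends on androgens. Its cells carried a retroviral short hairpin RNA and were selected with puromycin, either a scrambled control hairpin (shControl, 2 arrays) or a hairpin against the retinoblastoma gene (shRB, 3 arrays). Both groups received 10 Gy of ionizing radiation and RNA was taken 24 h later, so no unirradiated cells enter the comparison. Whether the arrays within a group stem from different cultures is not stated in the labels. The p-values are thus based only on how these arrays vary, which may be technical variation.

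The factors act as repressors or activators at short DNA motifs called E-boxes. SNAIL and ZEB proteins bind them through zinc fingers and silence junction genes such as the cadherin of epithelia. TWIST proteins bind them as basic helix-loop-helix dimers with E proteins, the products of TCF3, TCF4 and TCF12. ZEB1 and ZEB2 are held down by the miR-200 family and miR-205, which the ZEB proteins repress in turn. Vimentin builds intermediate filaments, and fibronectin is a matrix glycoprotein bound by integrins.

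Values are log2 of the deposited intensities, in which the lowest possible value is close to 4, and a level near it is not shown to be above background. RB1 stood at 5.81 and 5.70 on the shControl arrays and at 5.16, 5.28 and 5.20 on the shRB arrays. All 3 shRB arrays were lower than either shControl array, and the log2 difference of -0.54 (SE 0.14) did not pass the test over all genes (adjusted p = 0.0967). Prostate luminal markers were present: KLK3, which encodes prostate-specific antigen, lay between 10.06 and 10.17 on all 5 arrays. Of 12 listed luminal markers 5 were measured, and 0 passed the test (limma, 0 at an unadjusted p under 0.05, against 18.1% of all genes tested). Of 5 measured fibroblast markers, DCN (decorin) and LUM (lumican), which define fibroblasts, lay between 4.15 and 4.64 on every array, and TAGLN and THY1 between 4.61 and 5.06. FBLN1 stood at 5.05 and 5.01 in shControl and at 5.41, 5.31 and 5.28 in shRB, without overlap (difference 0.31, adjusted p = 0.286). The summed intensity of the 5 measured of 12 fibroblast markers ranged from 130.4 to 132.8 in shControl and from 134.7 to 141.9 in shRB.

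Of the 8 genes, 3 were lower in shRB cells (TWIST1, FN1 and VIM) and 1 was higher (SNAI2) at an adjusted p under 0.05 (limma, adjusted over all genes). Among all genes tested, 1.07% passed in either direction, 0.695% upward and 0.378% downward. The arrays of the groups did not overlap for 5 of the 8 genes, against 36.0% of all genes (20.6% higher and 15.4% lower in shRB). The 8 genes were chosen with earlier results of these data known, TWIST1, FN1, VIM and SNAI2 among them. Both counts therefore describe these arrays and do not measure an excess over all genes. SNAI1, TWIST2, ZEB1 and ZEB2 did not pass. Of the TWIST pair TWIST1 passed and TWIST2 did not, and of the SNAIL pair SNAI2 passed and SNAI1 did not, while neither ZEB gene passed. Whether the members of a pair differ from each other in their response was not tested.

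**Figure D1:**
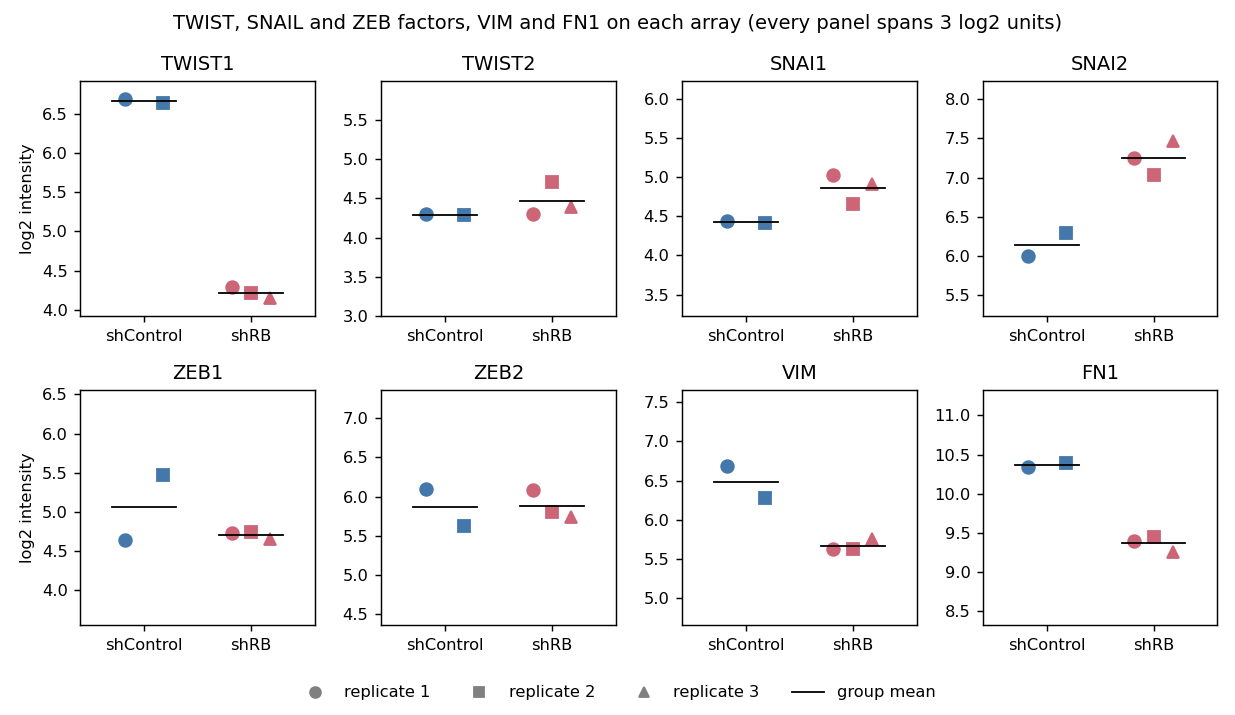
Log2 intensity of each gene on each array, with shControl in blue, shRB in red, the replicate number as the symbol and the group mean as a line; every panel spans 3 log2 units. TWIST1 is above 6.6 on both shControl arrays and below 4.3 on all 3 shRB arrays, SNAI2 moves the other way, and 1 shControl array holds the high ZEB1 value.

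TWIST1, the basic helix-loop-helix factor that acts in the mesoderm of embryos, had an intensity of 103.2 and 99.8 on the shControl arrays and of 19.6, 18.6 and 17.7 on the shRB arrays. In excess of 16, the lower limit of the deposited values, this is 87.2 and 83.8 against 3.57, 2.59 and 1.74. The groups lay far apart and no shRB array was near a shControl array. The log2 difference was -2.45 (SE 0.14, 95% interval -2.76 to -2.13, adjusted p = 3.24e-05). As the shRB level is not shown to be above background, these values hold on the deposited scale only, and with the constant of 16 subtracted and 4 added before the logarithm the difference was -3.76 (adjusted p = 0.00709). TWIST1 fell in all 13 alternative settings in which it was tested, 5 of them leaving out an array, and that adjusted p was the highest among them. As its groups did not overlap, leaving out an array could not turn its sign. The genes next to it among those measured on chromosome 7 were MIR1302-6 and FERD3L, which encodes a related helix-loop-helix factor. Neither passed (FERD3L log2 difference -0.03, adjusted p = 0.954, and MIR1302-6 0.23, adjusted p = 0.482). In shControl FERD3L and MIR1302-6 had mean log2 intensities of 4.57 and 4.17. So close to the lower limit, neither could have shown a fall as large as that of TWIST1.

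TWIST2, which shares the helix-loop-helix domain, lay at a log2 intensity of 4.30 and 4.29 in shControl and of 4.29, 4.70 and 4.39 in shRB. The groups overlapped, and all values except that of shRB replicate 2 were within 0.5 of the lower limit. Its difference was 0.17 (95% interval -0.19 to 0.53, adjusted p = 0.617). At such levels a change could be hidden by the limit of the scale.

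SNAI2 encodes SLUG, a zinc finger repressor of epithelial genes that is also expressed in basal epithelia. Its log2 intensity was 6.00 and 6.29 in shControl and 7.24, 7.03 and 7.46 in shRB, so all shRB arrays lay above both shControl arrays. SNAI2 rose by 1.10 (SE 0.17, 95% interval 0.72 to 1.48, adjusted p = 0.0151), 2.15-fold higher as deposited and 2.49-fold higher in excess of the lower limit. The rise was 1.10 without shRB replicate 1 (adjusted p = 0.119), 1.21 without replicate 2 (0.0622) and 0.99 without replicate 3 (0.142), past the threshold in none of these. Its neighbours CLXN (0.03) and PPDPFL (-0.07) did not pass (adjusted p = 0.96 and 0.911). Both were low on the scale, with group means of log2 intensity between 4.68 and 4.79.

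SNAI1 encodes SNAIL, the founding member of the family. Its log2 intensity was 4.45 and 4.42 in shControl and 5.03, 4.65 and 4.91 in shRB. The groups did not overlap, and both were low on the scale. The difference of 0.43 (SE 0.16) did not pass over all genes (adjusted p = 0.191), although its own 95% interval, 0.08 to 0.78, is above 0. The difference was positive in all 13 alternatives that tested it, from 0.35 to 0.83, and passed in 0 of them. Without overlap, leaving out an array could not turn its sign.

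ZEB1 and ZEB2 are zinc finger and homeodomain proteins that repress epithelial genes and the miR-200 loci. ZEB1 lay at 4.64 and 5.48 in shControl and at 4.73, 4.74 and 4.65 in shRB. The high value belongs to shControl replicate 2 and the other 4 arrays lie close together. ZEB1-AS1, the antisense transcript that starts beside ZEB1, was highest on the same array, with 4.18 and 5.60 in shControl and 4.77, 4.97 and 4.91 in shRB. The 2 shControl arrays also differed among dim probe sets in general. Of all probe sets, 36.3% lay within 0.5 log2 of the lower limit on shControl replicate 1 and 32.1% on replicate 2. On the shRB arrays this share was 30.9% to 32.7%. Whether the shared high value is particular to this locus was not tested. The ZEB1 difference was -0.35 (SE 0.21, adjusted p = 0.416). It was -0.77 without shControl replicate 1 and 0.07 without shControl replicate 2, so its sign rests on which shControl array is used. Each of these fits has 1 shControl array and so holds no spread among control arrays.

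ZEB2 lay at 6.09 and 5.63 in shControl and at 6.09, 5.80 and 5.74 in shRB. The groups overlapped throughout. Its difference was 0.01 (95% interval -0.38 to 0.41, adjusted p = 0.977), and its sign changed between settings. ZEB2-AS1, its antisense neighbour, differed by 0.11 (adjusted p = 0.771).

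**Figure D2:**
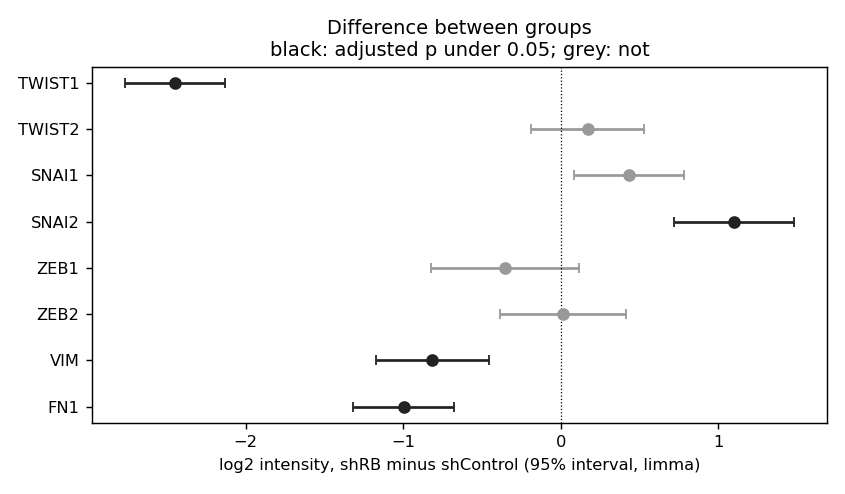
Difference in log2 intensity, shRB minus shControl, for each gene, with the 95% interval from limma, which is not adjusted for the number of genes; black marks an adjusted p under 0.05. TWIST1 stands at -2.45, FN1 at -0.996, VIM at -0.81 and SNAI2 at 1.10, and the ZEB2 estimate is at 0.01.

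FN1, fibronectin, was well above the lower limit in both groups, with a log2 intensity of 10.35 and 10.39 in shControl and 9.40, 9.46 and 9.26 in shRB. The arrays of each group lay close together and the groups were far apart relative to that. FN1 fell by 0.996 on the log2 scale (SE 0.15, 95% interval -1.32 to -0.68, adjusted p = 0.0103), and its shRB level was 0.501 of the shControl level as deposited and 0.496 in excess of the lower limit. With any 1 shRB array left out the difference stayed between -1.04 and -0.94 and missed the threshold, with an adjusted p of 0.0963 without replicate 1, 0.0744 without replicate 2 and 0.113 without replicate 3. The flanking measured genes ATIC (-0.02) and LINC00607 (0.17) did not pass (adjusted p = 0.97 and 0.618). In shControl ATIC had a mean log2 intensity of 9.55 and LINC00607 of 4.91, where the limit could hide a fall.

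VIM, vimentin, had a log2 intensity of 6.69 and 6.28 in shControl and of 5.63, 5.63 and 5.75 in shRB on the probe set used. Both shControl arrays lay above every shRB array, but they differed from each other by more than the shRB arrays did. VIM fell by 0.81 (SE 0.16, 95% interval -1.17 to -0.45, adjusted p = 0.0452), 1.76-fold lower as deposited. The platform annotation gives VIM 2 further probe sets that the choice of probe set left out. One stood at 5.73 and 5.19 in shControl and 5.00, 5.05 and 5.02 in shRB, a difference of -0.44 (adjusted p over all probe sets 0.219). The other stood at 5.81 and 5.23 in shControl and 5.47, 4.96 and 4.99 in shRB, a difference of -0.38 (adjusted p over all probe sets 0.37), and on it the groups overlapped.

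The 3 VIM probe sets thus all had negative differences, and 1 of them passed. The VIM difference was -0.61 without shControl replicate 1. It was -0.79 without shRB replicate 1 (0.215), -0.79 without shRB replicate 2 (0.189) and -0.85 without shRB replicate 3 (0.2). It was -1.02 without shControl replicate 2. Leaving out a shControl array leaves 1 in that group, so only the size of the difference is given there. The neighbours TRDMT1 (0.08, adjusted p = 0.813) and ST8SIA6-AS1 (0.23, adjusted p = 0.452) did not pass. In shControl ST8SIA6-AS1 had a mean log2 intensity of 8.70 and TRDMT1 of 4.92, where the limit could hide a fall. With the constant of 16 subtracted and 4 added before the logarithm, neither VIM (-0.99, adjusted p = 0.151) nor FN1 (-1.01, 0.123) nor SNAI2 (1.25, 0.123) passed. In bulk RNA, fewer cells that make a transcript and less of it per cell cannot be told apart.

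**Figure D3:**
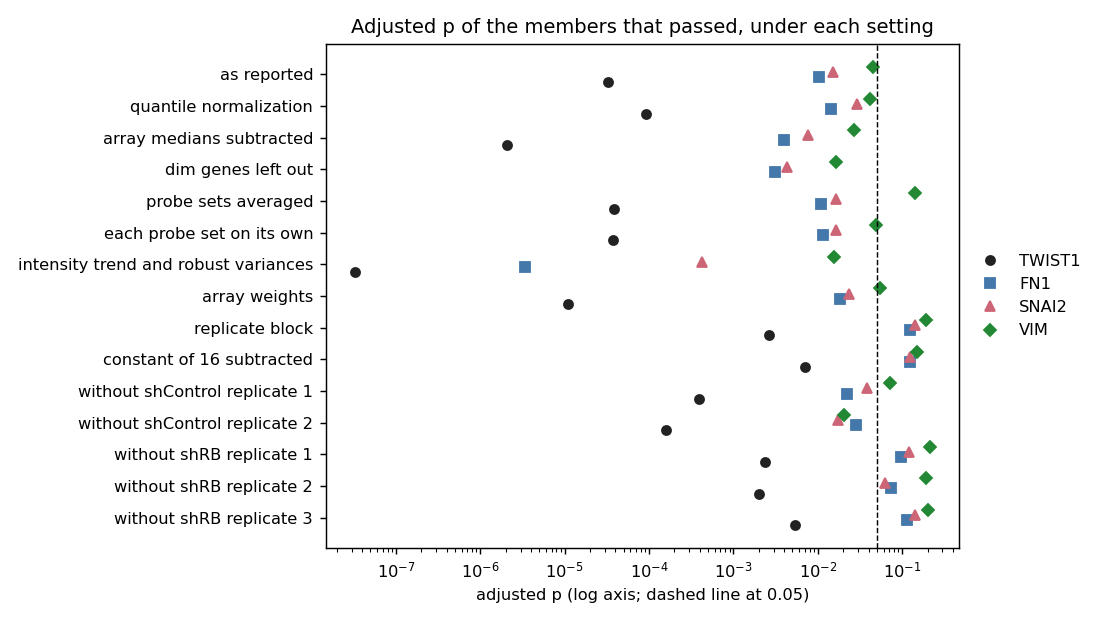
Adjusted p (log axis) of the 4 genes that passed, as reported and under each alternative setting, with a dashed line at 0.05. Leaving out a shControl array leaves 1 in that group, so the p-values there hold no spread among control arrays. TWIST1 is left of the line wherever it was tested (it is not among the genes kept when dim genes are left out), while FN1, SNAI2 and VIM are right of it when any 1 shRB array is left out and when the constant of 16 is subtracted.

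The sequences just upstream of FN1 and VIM are shown because both genes fell and both belong to the state that E-box-binding factors control. They are the 250 bases before the RefSeq start site (GRCh38.p14), 5′ to 3′, with matches to the GC box GGGCGG, on either strand, in capitals. FN1 lies at chr2:215436069-215436318 on the minus strand and VIM at chr10:17227991-17228240 on the plus strand.
FN1: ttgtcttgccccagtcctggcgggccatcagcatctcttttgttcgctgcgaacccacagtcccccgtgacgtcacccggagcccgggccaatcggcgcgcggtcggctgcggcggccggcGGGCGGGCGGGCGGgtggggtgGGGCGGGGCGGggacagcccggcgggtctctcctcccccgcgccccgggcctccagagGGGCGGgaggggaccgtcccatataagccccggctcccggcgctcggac
VIM: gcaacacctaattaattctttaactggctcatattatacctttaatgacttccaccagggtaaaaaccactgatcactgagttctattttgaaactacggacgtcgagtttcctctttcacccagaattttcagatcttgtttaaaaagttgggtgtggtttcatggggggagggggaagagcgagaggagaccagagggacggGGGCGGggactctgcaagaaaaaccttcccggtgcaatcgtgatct
The FN1 window held 6 GC box matches, some of which overlap each other, and the VIM window 1, where 42.6% of 35114 such windows in the table hold at least 1. Bases G and C made up 76.4% of the FN1 window and 46.0% of the VIM window.

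Neither window held the E-box CAGGTG preferred by SNAIL and ZEB proteins, which 17.5% of all windows hold, or any E-box CANNTG, which contains it and which 61.8% hold (both strands). Of the 8 genes, 5 had windows in the table, 11 in all, and ZEB1 had 7 of them; TWIST1, SNAI1 and SNAI2 were not in it. CAGGTG was found in 2 of the ZEB1 windows, and CANNTG, but not CAGGTG, in that of ZEB2. None of the 11 windows held TTTGGCGC, TTTCGCGC, TTTCCCGC or TTTGCCGC, letters bound by E2F factors, which 2.79% of all windows hold. These are matches of letters in a short window and were not tested as sites.

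The genes whose log2 values ran most like those of each gene that passed were found by the Euclidean distance between centred values over the 5 arrays. For TWIST1, whose values span 2.54, they were TMEM45B (distance 0.35), CRYBG1 (0.40) and ECHDC1 (0.66), all lower in shRB. For SNAI2, spanning 1.46, they were the small Cajal body RNA SCARNA11 (0.15), GPC5-AS1 (0.17) and the fatty acid desaturase FADS1 (0.27). For FN1, spanning 1.13, they were the cochaperone BAG2 (0.19), CLIP1-AS1 (0.20) and GAS6-DT (0.20), and for VIM, spanning 1.06, the lipase-related PNLIPRP2 (0.11), C8orf48 (0.17) and ERC2-IT1 (0.18). With 5 arrays in 2 groups, such likeness can come from the size and sign of the group difference alone.

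A list of TWIST dimerisation partners, related factors and ID proteins was measured for 12 of 16 genes, and 1 passed, upward. The list also holds the homeobox factors PRRX1 and MEOX1, so its counts are not those of dimerisation partners alone. TCF12, the E protein HEB, stood at 5.89 and 5.78 in shControl and at 6.49, 6.54 and 6.86 in shRB, with no overlap. TCF12 rose by 0.79 (SE 0.16, adjusted p = 0.0466). It did not pass without shControl replicate 2 (0.74, adjusted p = 0.0841) or without shRB replicate 1 (0.86, 0.167), 2 (0.84, 0.177) or 3 (0.68, 0.229), nor after quantile normalization (0.75, adjusted p = 0.0759), with array weights (0.77, 0.0881) or with the constant of 16 subtracted (0.95, 0.157). The other E proteins, TCF3 (0.45, adjusted p = 0.157) and TCF4 (0.51, 0.159), and MSC, a repressor of the same family (0.41, 0.188), had positive differences that did not pass. The median difference of the list was 0.17, against 0.02 over all genes tested, with 7 of the 12 positive and 5 negative. At an unadjusted p under 0.05 (limma) were 4 of the 12, against 18.1% of all genes tested. The 1 that passed compares with 1.07% of all genes tested. ID proteins, which sequester E proteins, are not analysed here.

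Among 31 measured epithelial genes of 42 listed, 0 passed (limma, 6 at an unadjusted p under 0.05, where 18.1% of all genes tested are), with a median difference of -0.04. Differences were positive for 14 and negative for 17, from -0.48 to 0.58. The desmosomal cadherin DSC2 was at 9.87 and 9.84 in shControl and 10.53, 10.47 and 10.29 in shRB (difference 0.58, adjusted p = 0.0933), and the tight junction protein MARVELD3 differed by 0.54 (adjusted p = 0.112). In the other direction stood DSP, the desmosomal linker desmoplakin (-0.48, adjusted p = 0.129), and GRHL2, an activator of epithelial genes (-0.45, 0.157). CDH1, the E-cadherin gene, is not analysed here.

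Mesenchymal genes other than VIM and FN1 were measured for 14 of 35 listed, and 0 passed, with a median difference of 0.05. At an unadjusted p under 0.05 (limma) were 2 of the 14, against 18.1% of all genes tested. S100A4, a calcium-binding protein of motile cells, differed by 0.48 (adjusted p = 0.161), the matricellular gene CCN2 by -0.40 (0.204), the BMP antagonist GREM1 by -0.33 (0.318) and the collagen cross-linking enzyme LOX by 0.36 (0.376). The fibrillar collagen genes and CDH2, N-cadherin, are not analysed here. Of 14 other transcription factors of the transition (18 listed), 0 passed as well (3 at an unadjusted p under 0.05; median -0.03), with the bone factor RUNX2 at 0.54 (adjusted p = 0.174) and the homeobox factor PRRX1 at -0.34 (0.313).

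**Figure D4:**
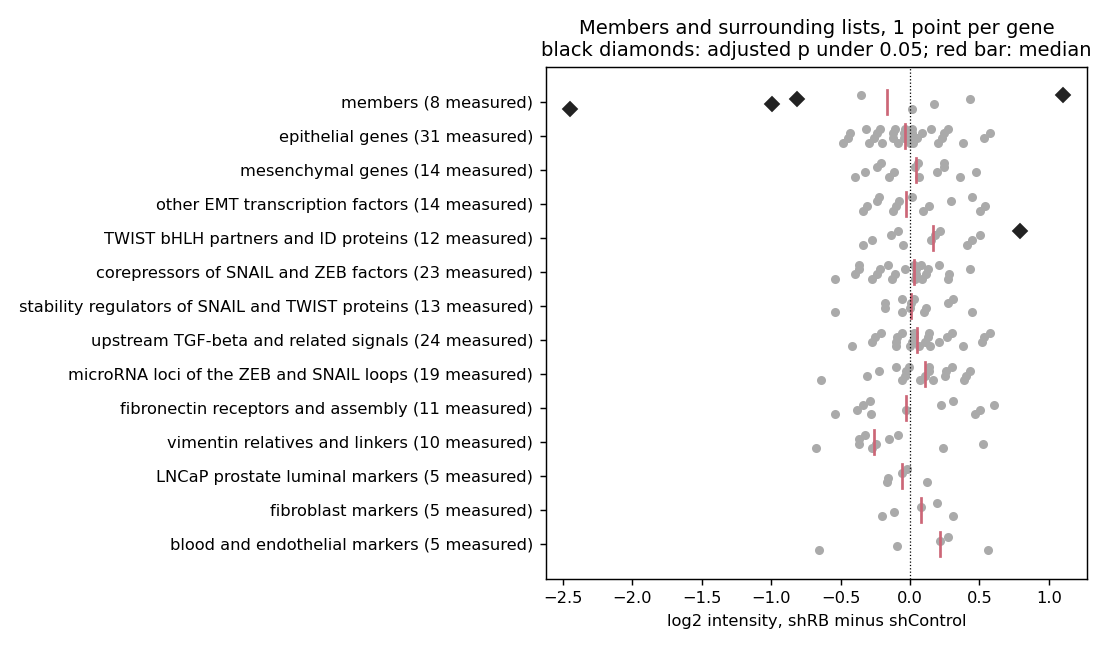
Difference in log2 intensity, shRB minus shControl, with 1 point per measured gene in the 8 genes of interest and in each surrounding list; a black diamond marks an adjusted p under 0.05 and a red bar the median. The 4 diamonds among the 8 genes lie between -2.45 and 1.10, and TCF12 at 0.79 is the 1 other diamond.

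The microRNAs that bind ZEB messengers are shown with their seeds, bases 2 to 8 from the 5′ end, in capitals, because miR-200b, miR-200c and miR-429 share 1 seed and miR-200a and miR-141 another. The mature sequences are from RefSeq (GRCh38.p14).
miR-205-5p: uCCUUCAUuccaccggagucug
miR-200b-3p: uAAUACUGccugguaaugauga
miR-200c-3p: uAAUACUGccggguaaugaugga
miR-429: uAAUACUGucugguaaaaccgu
miR-200a-3p: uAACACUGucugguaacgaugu
miR-141-3p: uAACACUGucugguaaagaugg
The arrays measured transcripts of these loci from total RNA, and the level of the mature microRNA is not known from them.

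MIR205 had the smallest p of the 19 measured loci of this list (24 listed). It stood at 4.93 and 4.94 in shControl and at 4.28, 4.32 and 4.27 in shRB, so the arrays of each group were nearly equal and the groups did not overlap. The difference of -0.64 (SE 0.14) did not pass over all genes (adjusted p = 0.0617), and both levels are low on the scale. MIR200B stood at 4.79 and 4.51 in shControl and 4.99, 5.10 and 5.17 in shRB (difference 0.44, adjusted p = 0.176). Its cluster partner MIR429 was at 4.83 and 5.44 against 5.61, 5.60 and 5.40 (0.40, adjusted p = 0.286), with overlap.

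MIR200A (0.07, adjusted p = 0.834) and MIR200C (0.13, 0.658) lay within 0.25 of the lower limit on all 5 arrays. MIR141, from the cluster of MIR200C, differed by -0.31 (adjusted p = 0.348). MIR21, from a locus often raised in tumours, differed by 0.39 (0.272). Across the list 0 loci passed, and the median difference was 0.11. An unadjusted p under 0.05 (limma) was found for 3 loci, against 18.1% of all genes tested.

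**Figure D5:**
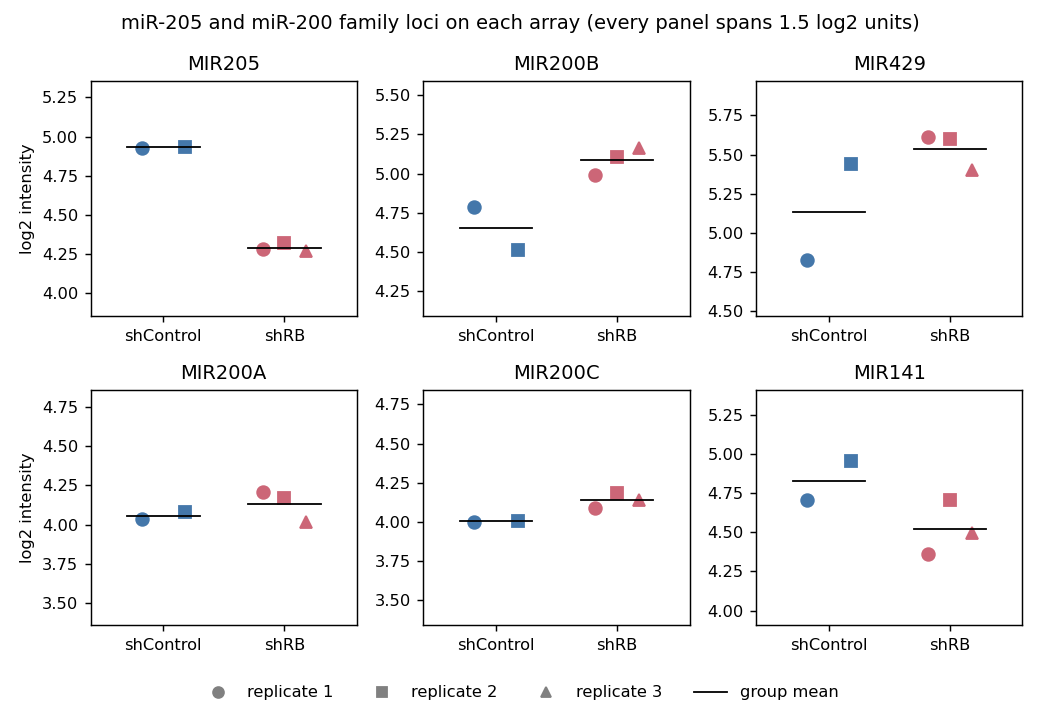
Log2 intensity of the miR-205 locus and the 5 miR-200 family loci on each array, with shControl in blue, shRB in red and the group mean as a line; every panel spans 1.5 log2 units. MIR205 is near 4.93 on both shControl arrays and near 4.3 on the 3 shRB arrays, while MIR200A and MIR200C lie at the bottom of the scale in both groups.

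Corepressors used by SNAIL and ZEB proteins were measured for 23 of 28 listed, with 0 passing and a median of 0.03. At an unadjusted p under 0.05 (limma) were 3 of the 23, against 18.1% of all genes tested. RING1, a Polycomb ubiquitin ligase, differed by 0.43 (adjusted p = 0.17), the deacetylase HDAC3 by -0.36 (0.222), the LIM protein WTIP by -0.37 (0.223) and the remodeller CHD4 by -0.39 (0.302). Of 13 measured regulators of SNAIL and TWIST protein stability (28 listed), 0 passed (2 at an unadjusted p under 0.05; median 0.00). Among these, the deubiquitinases USP47 (-0.54, adjusted p = 0.108) and USP37 (0.45, 0.175) differed in opposite directions, and BTRC, which targets SNAIL for degradation, stood at 0.31 (0.3) and the kinase gene GSK3A at 0.27 (0.35).

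Upstream signals of the TGF-beta and related pathways were measured for 24 of 38 listed, and 0 passed, with a median of 0.05. At an unadjusted p under 0.05 (limma) were 4 of the 24, against 18.1% of all genes tested. The receptor FGFR1 was at 4.11 and 4.17 in shControl and 4.83, 4.81 and 4.51 in shRB (difference 0.58, adjusted p = 0.102). SMAD7, the feedback inhibitor of TGF-beta signalling, differed by 0.52 (0.135), the NOTCH ligand JAG1 by 0.53 (0.138) and NFKB1 by -0.41 (0.247). The TGF-beta ligand and receptor genes on this list are not analysed here.

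Of the receptors and assembly factors of fibronectin, 11 of 27 were measured and 0 passed (limma, 4 at an unadjusted p under 0.05, against 18.1% of all genes tested; median -0.03). SDC2, a syndecan that takes part in fibronectin assembly, stood at 5.39 and 5.39 in shControl and 6.06, 5.84 and 6.09 in shRB, without overlap (difference 0.61, adjusted p = 0.0845). TLN1, talin, which links integrins to actin, differed by -0.54 (0.112), and the adhesion proteins LIMS1 and FERMT2 by 0.50 (0.134) and 0.47 (0.155). Vimentin relatives and linkers had the lowest list median, -0.26, with 8 of 10 measured genes (19 listed) negative, against 6837 of all 14812. Of the 10, 0 passed and 2 were at an unadjusted p under 0.05 (limma). The groups did not overlap for 2 of the 10, against 36.0% of all genes tested. The glial filament gene GFAP was at 5.90 and 7.05 in shControl and 5.71, 5.97 and 5.72 in shRB (-0.67, adjusted p = 0.22), so the high value belongs to shControl replicate 2 alone. The linker DST was at 0.53 (0.171), the filament gene NES at -0.37 (0.31) and the lamin gene LMNA at -0.37 (0.372). LMNA overlapped, with 6.58 and 5.91 in shControl and 6.01, 5.98 and 5.65 in shRB.

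Markers of blood and endothelial cells were measured for 5 of 12 listed, with 0 passing. At an unadjusted p under 0.05 (limma) were 2 of the 5, against 18.1% of all genes tested. VWF (-0.65, adjusted p = 0.164) and EMCN (0.56, 0.106) differed in opposite directions. The summed intensity of these markers ranged from 216.4 to 292.7 in shControl and from 249.4 to 263.8 in shRB, so the shRB range lay inside that of shControl.

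Over all lists together, without the 8 genes themselves, 1 of 180 measured genes passed, or 0.556%, against 1.07% of all genes tested. At an unadjusted p under 0.05 were 33 of the 180, against 18.1% of all genes, and the groups did not overlap for 68 of the 180, against 36.0% of all genes.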

How the data were processed

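Transcripts were measured on 5 single-colour arrays hybridised with biotin-labelled cDNA. The authors deposited linear intensities, 1 per probe set. How probes were summarised and arrays normalized, with which software and genome build, is not stated here by labels or file. All deposited intensities were above 16, a limit that compresses differences of dim genes. The table held 44607 probe sets, of which 15835 had 1 gene symbol in the platform annotation, 0 several, and 28772 were unnamed here. All 15835 were matched by Entrez identifier to the RefSeq gene table of GRCh38.p14, giving 14812 genes, 651 of them with more than 1 probe set.

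Intensities were log2-transformed and shRB was tested against shControl without covariates in limma (version 3.58.1, R version 4.3.3; linear model with moderated variances, two-sided). Adjusted p-values are Benjamini-Hochberg values over all genes from this limma test, with a call under 0.05. The test was also run on simulated independent normal values without the lower limit. Such a run cannot show how the test behaves near that limit or with technical replicates. The 8 genes, the gene lists and the naming rule were chosen with earlier results of these data known, TWIST1, FN1, VIM and SNAI2 among them, so their p-values describe these arrays and are no independent evidence. The rule named the 8 genes, RB1, KLK3, list genes that passed, up to 4 a list by smallest p, and for each of the 8 that passed the 3 genes nearest in pattern. MIR200A, MIR200C, MIR141, LUM, the antisense and the flanking genes lie outside it and were chosen after their values were seen. Equal replicate numbers were not taken to pair arrays. Normalizations, filters, probe set rules, variance models, the constant of 16 and left-out arrays were varied. Sequences and motifs came from RefSeq tables. The number of arrays limits the precision.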

Additional observations from a re-analysis of the deposited data

How the results depend on the processing

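TWIST1, FN1, VIM, SNAI2 and SNAI1 kept their direction under every alternative run that tested them. The groups did not overlap for these genes, so leaving out or weighting arrays or subtracting the constant could not turn it. TWIST2, near the lower limit and with overlapping groups, also kept its direction (0.05 to 0.38) and passed in 0 of its 13 alternatives. The direction of ZEB1 turned without shControl replicate 2 (log2 0.066), and without 1 array it ranged from -0.77 to that value. That of ZEB2 turned after quantile normalization (-0.028), with array medians subtracted (-0.017), without shControl replicate 2 (-0.22) and without shRB replicate 1 (-0.09), with values from -0.22 to 0.25 without 1 array. Of the 4 genes of interest that passed, 1 passed at an adjusted p under 0.01, with the constant of 16 subtracted and 4 added, and with the replicate block; it was TWIST1. VIM also failed with its probe sets averaged (-0.55, adjusted p = 0.141) and with array weights (-0.82, 0.0551). Leaving out each shRB array in turn, TWIST1 alone passed. Calls without a shControl array are not counted here, as 1 array is then left in that group. Dim genes left out removes TWIST1, TWIST2, SNAI1 and ZEB1 from the test.

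Of all genes, 159 passed, 103 higher and 56 lower. This became 32 at 0.01, 517 at 0.1, 385 with dim genes left out, 426 with an intensity trend and robust variances, 88 with array weights, 13 with the constant subtracted (4 higher, 9 lower), and 22 to 411 without 1 array. After quantile normalization 60 were higher and 55 lower. Of the 180 list genes, 1 passed. The count was 0 at 0.01, after quantile normalization, with array weights, with the constant subtracted and without any 1 shRB array. It was 2 with array medians subtracted, 3 with dim genes left out, 4 at 0.1 and 5 with the trend. In these runs 21 to 39 were at an unadjusted p under 0.05 (limma), and in the reported fit 33, against 18.1% of all genes. The causes were not tested.

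The replicate block, on replicates 1 and 2 of each group, called 24 genes, 0 list genes and 1 gene of interest, against 22, 0 and 1 on the same arrays without it. Deviations from the group means correlated at -0.021 for replicate 1 and 0.046 for replicate 2. The deviations of the 2 shControl arrays mirror each other, so these are not separate checks. Whether arrays of equal number share a culture or day is not given by the labels, and these values cannot settle it.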
